A study of Homo sapiens with 2 samples.

Results

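DTX3L, PARP9, PARP14, PARP10, PARP12 and ZC3HAV1 are 6 genes of ADP-ribosylation that interferon is known to induce in many cell types, and PARP1 and PARP2 are relatives that are not known as interferon genes. Their RNA was followed in RWPE-1, a line of noncancerous epithelial cells of the human prostate, kept in serum-free keratinocyte medium. The cells carried either pre-miR-424, a synthetic precursor of the microRNA miR-424, at 30 nM, or the same dose of the negative control #1 precursor. Transfection and medium were therefore shared by both groups. RNA of both was hybridised together on 2 Agilent two-colour arrays of 1 slide, with the pre-miR-424 RNA in Cy5 under normal labelling and in Cy3 on the dye swap. The labels call the arrays technical replicates, so they counted as 1 replicate of the comparison. No p-value was computed, and their SD holds error of labelling and hybridisation but none between cultures.

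Members were the non-control probes whose RefSeq accession belongs to 1 of the 8 genes, which gave 11 of the 42405 probes on the arrays. All 11 were measured, that is, marked well above background by the scanner software for both dyes on each array and without an outlier spot. Measured over the whole arrays were 25664 probes, and those of them with a gene symbol stood for 13808 genes. The genes were picked partly on their log2 ratios on these arrays, which were known when the list was made, so the ratios are given as a description. Every ratio is the log2 of pre-miR-424 over control, a difference between the cells and not a level, and a gene with several probes was represented by its brightest.

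PARP proteins move ADP-ribose from NAD onto proteins or nucleic acids. PARP1 and PARP2 build long chains at DNA breaks, whereas PARP10, PARP12 and PARP14 attach single units, and PARP9 works as the partner of the ubiquitin ligase DTX3L. ZC3HAV1, also called ZAP, is a PARP relative without catalytic activity that binds CpG-rich viral RNA and leads it to decay. Several of these proteins restrict viruses, and their genes respond to interferon through factors such as STAT2 and IRF9.

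The delivered molecule is shown first because every comparison rests on it. The labels name the precursor and no arm, so both mature microRNAs that RefSeq lists for this hairpin are given, with the seed (bases 2 to 8) in capitals. They lie on the minus strand of GRCh38.p14 at chrX:134546680-134546701 and chrX:134546644-134546664.
hsa-miR-424-5p: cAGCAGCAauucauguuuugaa
hsa-miR-424-3p: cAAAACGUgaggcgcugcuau
The seeds differ, and sites for them in the members' transcripts were not analysed here.

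Among the 6 interferon-linked genes, DTX3L was the member with the largest ratio, at 2.01-fold more RNA with pre-miR-424 in the mean of the arrays. PARP9, PARP14 and PARP10 were higher on both arrays, with means of 1.46, 1.31 and 1.30-fold. ZC3HAV1 was higher by 1.14-fold and PARP12 stood at 1.01-fold. Only DTX3L passed 1.5-fold (0.58 on the log2 scale) on both arrays with 1 sign, that is, 1 of 6, beside 86 of 13808 measured genes (0.623%) higher by this rule and 54 (0.391%) lower. At 2-fold on both arrays 0 of the 6 were called, beside 10 of all genes (0.0724%). At 1.2-fold the count was 4 of 6 (DTX3L, PARP9, PARP14 and PARP10), beside 493 genes (3.57%), and 5 of 6 were above 0 on both arrays, beside 3706 genes (26.8%). Since the genes were picked with these ratios known, the counts are read against these shares only as a description. The median log2 ratio of the 6 genes was 0.39, at 0.38 with normal labelling and 0.40 on the swap, where the median of all measured genes was −0.0040. RNA from bulk cultures cannot tell more RNA per cell from more cells that carry it.

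**Figure D1:**
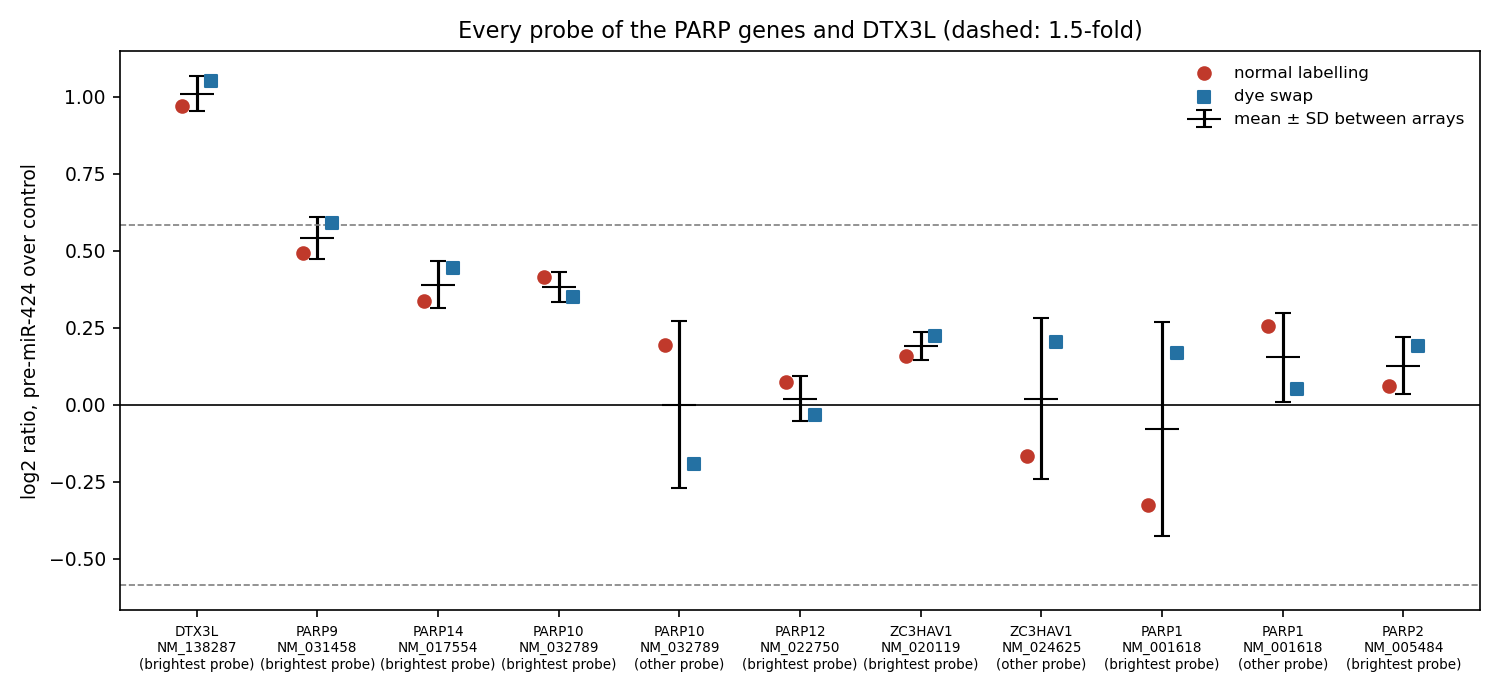
Log2 ratio of pre-miR-424 over control (y axis) for each of the 11 probes (x axis, gene and RefSeq accession), with the array of normal labelling as circles, the dye swap as squares, and the mean ± SD between the arrays as bars. DTX3L sits at 0.97 and 1.05, above the dashed line of 1.5-fold, and the second probes of PARP10 and ZC3HAV1 take opposite signs on the 2 arrays.

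DTX3L is an E3 ubiquitin ligase of the Deltex family that acts with PARP9 on histones and viral proteins. Its single probe (NM_138287) gave normalized intensities of 2994 with pre-miR-424 and 1530 in the control on the array with normal labelling, and of 3335 and 1611 on the dye swap. Levels with pre-miR-424 lay above both control levels on each array. These were 2 readings of 1 pair of RNAs, and the share of all genes with such levels was not counted. Of all measured genes 26.8% were higher on both arrays. The same limit holds for the levels of PARP9, PARP14 and PARP10 below. The log2 ratios were 0.97 and 1.05, a mean of 1.01 ± 0.057 (SD between 2 arrays). The spread of a single array was 0.21, well below the ratio. It is the SD, over probes of similar brightness, of the difference between the arrays, divided by the square root of 2. In order of mean ratio DTX3L ranked 15 among 13808 measured genes, and 0.109% of genes lay at or above it.

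The raw signals of this probe differed with the dye. With normal labelling the unnormalized signal was 3691 in Cy5 (pre-miR-424) and 1248 in Cy3 (control), and on the swap it was 2252 in Cy5 (control) and 2372.5 in Cy3 (pre-miR-424). The raw signals of the swap were thus nearly equal, and the loess fit, which removes the dye bias at each brightness, set them apart. Across all measured probes the same rule of 1.5-fold, applied to the dyes in place of the RNAs, was passed by 119 probes higher in Cy5 and 22 higher in Cy3. Turned to pre-miR-424 over control it was passed by 108 probes higher and 110 lower. After the fit DTX3L had the same sign on both arrays, and with median centring in place of loess its mean log2 ratio was 0.95. The part of the dye in its size was not tested.

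PARP9 has macrodomains that read ADP-ribose and forms a complex with DTX3L. At its single probe (NM_031458) the intensities were 5793 with pre-miR-424 and 4114 in the control with normal labelling, and 6312 and 4194 on the swap. Both levels with pre-miR-424 exceeded both control levels. Its log2 ratios were 0.49 and 0.59, a mean of 0.54 ± 0.068, at which 1.21% of genes lay at or above it. The dye swap alone passed 1.5-fold and the array with normal labelling did not, so its call depends on the array.

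**Figure D2:**
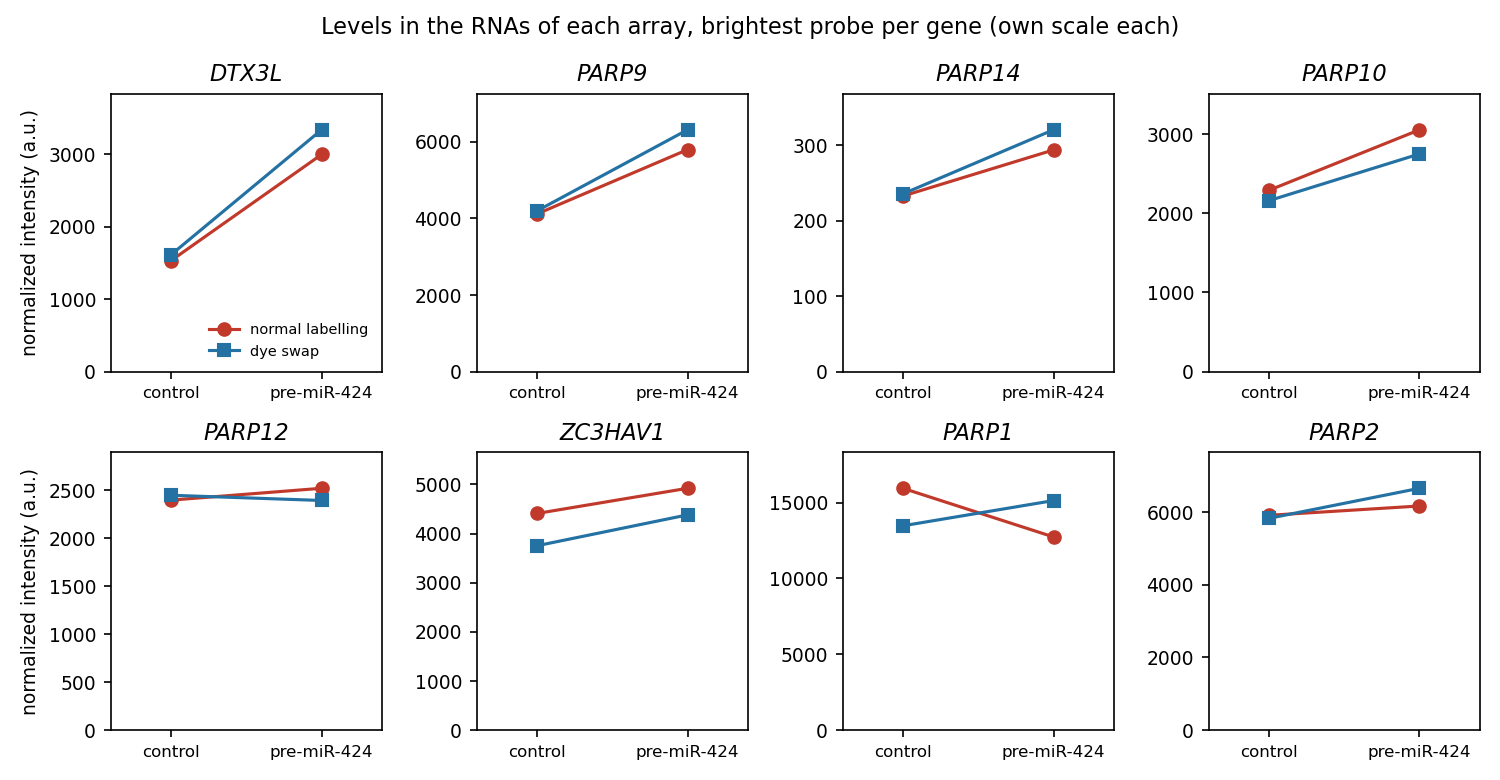
Normalized intensity in arbitrary units (y axis, from 0) of the control and the pre-miR-424 RNA (x axis) on each array, at the brightest probe of each gene; each panel has its own scale and lines join the RNAs of 1 array. Both lines climb for DTX3L, PARP9, PARP14, PARP10, ZC3HAV1 and PARP2, whereas those of PARP12 and PARP1 cross.

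PARP9 and DTX3L are neighbours that start 38 bases apart on opposite strands, and the ratio of DTX3L was the larger on both arrays. The difference DTX3L minus PARP9 was 0.48 on the log2 scale with normal labelling and 0.46 on the swap, a mean of 0.47 ± 0.011, or 1.38-fold. Both ratios come from the same RNAs, and 1 probe each does not tell apart RNA made from both starts and RNA of other starts. RefSeq gives PARP9 a second start, whose window did not hold either motif named below.

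The promoters are shown because the head-to-head pair shares 1 stretch of DNA, which holds the letters of an interferon-stimulated response element, a motif known from the promoters of interferon genes. The windows of RefSeq (GRCh38.p14) reach from 250 bases before to 50 after each start, and all genes but PARP10 were matched in it. Capitals mark the element's core, GAAANNGAAA on either strand, and the GAS core, another motif of interferon-responsive promoters, TTCNNNGAA. Stretches with 15 bases on each side are printed for the pair and for PARP14 and PARP12, in the direction of each gene.
PARP9: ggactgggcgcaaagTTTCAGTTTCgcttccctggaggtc
DTX3L: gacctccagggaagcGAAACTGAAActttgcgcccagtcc
PARP14: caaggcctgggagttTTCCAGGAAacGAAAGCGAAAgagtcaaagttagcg
PARP12: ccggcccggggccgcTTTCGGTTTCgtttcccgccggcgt
PARP9 (minus strand) and DTX3L (plus strand) are the same bases, chr3:122564317-122564356. PARP14 is chr3:122680784-122680834 on the plus strand and PARP12 is chr7:140062937-140062976 on the minus strand. The 2 motifs did not overlap in the window of PARP14.

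With the first transcribed base as position 0, the shared core of the pair covered positions −6 to 3 of DTX3L and −41 to −32 of PARP9. In PARP14 the core lay at −29 to −20 with a GAS core at −40 to −32, and in PARP12 it lay at −10 to −1. ZC3HAV1 and PARP2 held a GAS core alone, at −104 to −96 and −154 to −146, and PARP1 held neither. Over all 35116 RefSeq windows 3.57% held the GAAANNGAAA core and 7.66% the GAS core. Among 10957 measured genes with a window 442 (4.03%) held the first, and among the 71 of them that were higher at 1.5-fold 17 (23.9%) did. For the GAS core these numbers were 927 (8.46%) and 10 (14.1%). These are matches of letters, not measured sites. PARP12 held the core and had a log2 ratio of 0.020, while ZC3HAV1 did not hold it within this window and had 0.19.

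PARP14, which modifies proteins with single ADP-ribose units and acts in interferon and interleukin signalling, lies on chromosome 3 beside this pair, with PARP15 between them. Its probe (NM_017554) read 294 with pre-miR-424 and 233 in the control with normal labelling, and 321 and 236 on the swap. Both levels with pre-miR-424 were again above both control levels. The log2 ratios were 0.34 and 0.44, a mean of 0.39 ± 0.076, with a single-array spread of 0.21 at this brightness. This was a dim probe, with 68.7% of measured probes brighter, and the offset used in background correction draws ratios of such probes towards 0. Its mean was 0.45 with an offset of 16, 0.39 with uncorrected background and 0.53 with the scanner software's ratios. What set these values apart was not tested. PARP15 was not well above background.

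Genes that flank this block on chromosome 3 were looked up by position, a rule added after the data had been seen. Of 6 protein-coding neighbours, 3 on each side, 5 were measured, with mean log2 ratios from −0.093 to 0.30. Among them HSPBAP1, next to PARP14, had 0.16 and 0.44. The ratios of WDR5B (−0.30 and 0.29) and KPNA1 (−0.46 and 0.27), next to PARP9, changed sign between the arrays. None of the 5 passed 1.5-fold on both arrays, beside 0.623% of all measured genes higher and 0.391% lower.

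PARP10, which attaches single ADP-ribose units and restrains alphavirus replication, had 2 probes of the same accession (NM_032789). At the brighter one the intensities were 3055 with pre-miR-424 and 2290 in the control with normal labelling, and 2750 and 2159 on the swap. Both levels with pre-miR-424 lay above both control levels, and the log2 ratios were 0.42 and 0.35, a mean of 0.38 ± 0.047. The second probe read 136 and 119, then 117 and 134, so that its ratios were 0.19 and −0.19 and their mean 0.00058 ± 0.27. It was among the dimmest, with 92.8% of measured probes brighter. The mean over both probes was 0.19, so the value of this gene rests on the brighter probe.

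PARP12, a zinc finger PARP that blocks translation of viral RNA, was printed in 10 spots per array (NM_022750). Its intensities were 2518 with pre-miR-424 and 2395 in the control with normal labelling, and 2391 and 2445 on the swap, so the groups overlapped. The log2 ratios were 0.073 and −0.032, a mean of 0.020 ± 0.074. Over the 10 spots the ratio ran from 0.0090 to 0.17 (median 0.052) with normal labelling and from −0.12 to 0.050 (median −0.040) on the swap. Within an array the spots had an SD of 0.054 and 0.046. This gene therefore had the most spots of the 8 and a mean within the difference between the arrays, and 43.3% of genes lay at or above it.

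ZC3HAV1 is represented by 2 probes, of which NM_020119 belongs to the long form ZAPL and NM_024625 to the short form ZAPS. Whether a probe reads only its own form was not tested. The long form's probe, the brighter, read 4920 with pre-miR-424 and 4407 in the control with normal labelling, and 4379 and 3751 on the swap. Within each array the pre-miR-424 RNA was the higher, while across arrays the levels overlapped. Its ratios were 0.16 and 0.22, a mean of 0.19 ± 0.046, below the single-array spread of 0.21. The short form's probe read 1729 and 1939, then 2007 and 1741, with ratios of −0.17 and 0.20 and a mean of 0.020 ± 0.26.

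PARP1, the main sensor of DNA breaks, and PARP2, its close relative, had no probe that reached 1.2-fold on both arrays with 1 sign. The brighter PARP1 probe (NM_001618) read 12735 with pre-miR-424 and 15943 in the control with normal labelling, and 15133 and 13470 on the swap. Its ratios of −0.32 and 0.17 took opposite signs, with a mean of −0.078 ± 0.35. The same held for its 2 spots, at −0.42 and −0.23 with normal labelling and 0.11 and 0.22 on the swap. The single-array spread among probes of this brightness was 0.40, against 0.21 for most members. The other PARP1 probe read 4355 and 3646, then 4167 and 4021, with ratios of 0.26 and 0.052 and a mean of 0.15 ± 0.14. PARP2 (NM_005484) read 6168 and 5911, then 6655 and 5828, with ratios of 0.061 and 0.19 and a mean of 0.13 ± 0.092, at which 20.5% of genes lay at or above it.

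In order of mean log2 ratio the 8 genes stood as DTX3L (1.01), PARP9 (0.54), PARP14 (0.39), PARP10 (0.38), ZC3HAV1 (0.19), PARP2 (0.13), PARP12 (0.020) and PARP1 (−0.078). DTX3L and PARP9 were farther apart than the single-array spread of 0.21. All other neighbours in this order were closer to each other than that, and PARP14 and PARP10 could not be ordered. ZC3HAV1, counted here with the interferon-linked genes, and PARP2, counted with their relatives, likewise overlapped. The 6 interferon-linked genes had SDs between the arrays of at most 0.076 at their brightest probes.

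**Figure D3:**
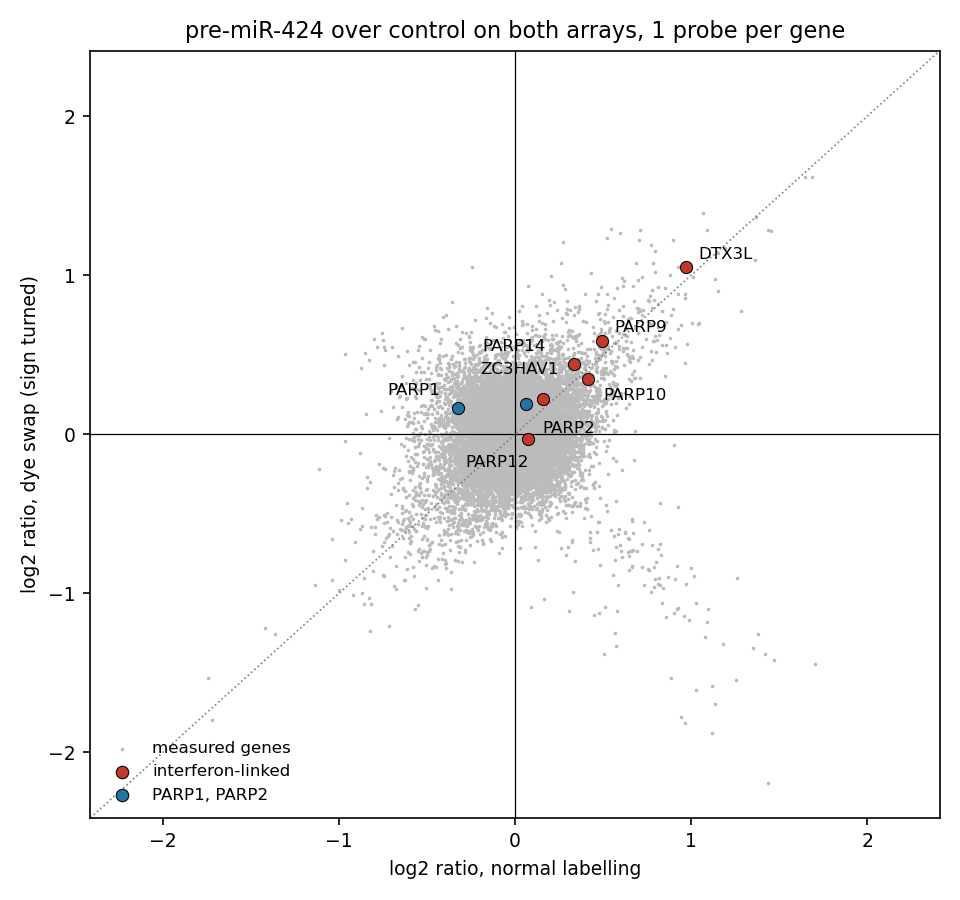
Log2 ratio of pre-miR-424 over control with normal labelling (x axis) and on the dye swap with the sign turned (y axis) for 13808 measured genes (grey), the 6 interferon-linked genes (red) and PARP1 and PARP2 (blue). The dotted line marks equal ratios; DTX3L lies far along it, PARP12 lies at the origin, and grey points at the lower right changed with the dye.

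Pathway lists drawn from general knowledge, with earlier results of these data known, gave values for other genes of ADP-ribosylation. Calls in them stand beside 0.623% of all measured genes called higher and 0.391% lower. Of 10 other PARP genes 8 were measured, with a median log2 ratio of 0.13. TNKS2, a tankyrase that builds ADP-ribose chains on telomere and Wnt pathway proteins, was the 1 member called higher, at 0.66 and 0.73 (mean 0.69, 1.62-fold), and its relative TNKS had 0.33 and 0.29. Centring each array on its median in place of loess ended the call of TNKS2. PARP16, an enzyme of the endoplasmic reticulum, had −0.33 and −0.16, and none of the list was called lower. PARP11, of the nuclear envelope, had 0.26 and 0.17, and PARP8 was set aside for an outlier spot. TNKS2 and TNKS are not known as interferon genes.

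Of the other Deltex genes, the family of DTX3L, DTX2 (−0.18) and DTX4 (−0.045) were measured and 0 were called, whereas DTX1 and DTX3 were not well above background. Genes that remove ADP-ribose or assist PARPs (PARG, the macrodomain hydrolases, HPF1 and others) had 8 of 9 measured and 0 called, with a median of 0.012 and means from −0.074 to 0.094. NAD supply genes had 6 of 7 measured, 0 called and a median of 0.077, with NADSYN1, the NAD synthetase, at 0.39 and 0.081. ZAP partners and its relative had 7 of 7 measured, 0 called and a median of 0.14. With 0.623% of all measured genes called higher and 0.391% lower, 0 called in lists this small is near the share of all genes. Among the ZAP list no more is read from it. Among these the exosome subunit EXOSC5 had 0.30 and 0.19, the ZAP cofactor KHNYN −0.042 and −0.50, the ubiquitin ligase TRIM25 0.35 and 0.057, and the ribonuclease XRN1 0.064 and 0.33.

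Of the 9 factors through which interferon acts all were measured, and their median was 0.25. Above 0 on both arrays were 7, beside 26.8% of all measured genes. Called higher were 2 and lower 0, beside 0.623% and 0.391% of all measured genes. Those called were IRF7, which amplifies interferon production (1.04 and 0.69), and IRF9, the DNA-binding unit of ISGF3 (0.70 and 0.64). STAT2, its partner, had 0.62 and 0.54. Of 8 interferon ligands 7 had a probe, 4 were measured and 0 were called. IFNB1, IFNG and IFNL3 were not well above background, and IFNK, an epithelial type I interferon, had 0.089 and 0.60.

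A reference list of 26 interferon response genes had 24 measured and a median of 0.79, with means from 0.22 for SAMD9L to 1.65 for IFI44L. Called higher were 13 and lower 0, beside 0.623% and 0.391% of all measured genes. All 24 were above 0 on both arrays, beside 26.8% of all measured genes. The 4 with the largest ratios were IFI44L (1.69 and 1.62), the GTPases MX2 (1.65 and 1.62) and MX1 (1.45 and 1.28), which block virus entry and replication, and the nucleotide kinase CMPK2 (1.37 on each array). XAF1, IFI6, OAS1, OAS2, RSAD2, ISG15, IFIT1, USP18 and IFIT3 were the others called. At 1.2-fold or more were 21 of 24, beside 4 of the 6 interferon-linked genes and 3.57% of all measured genes. The list had the larger median, a comparison of genes chosen with results known. DTX3L lay among the higher of them, close to OAS1 (0.90 and 1.22). PARP9 lay near IFIT2 (0.51 and 0.52) and IFI44 (0.63 and 0.50), and PARP14 and PARP10 near GBP1 (0.30 and 0.48).

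**Figure D4:**
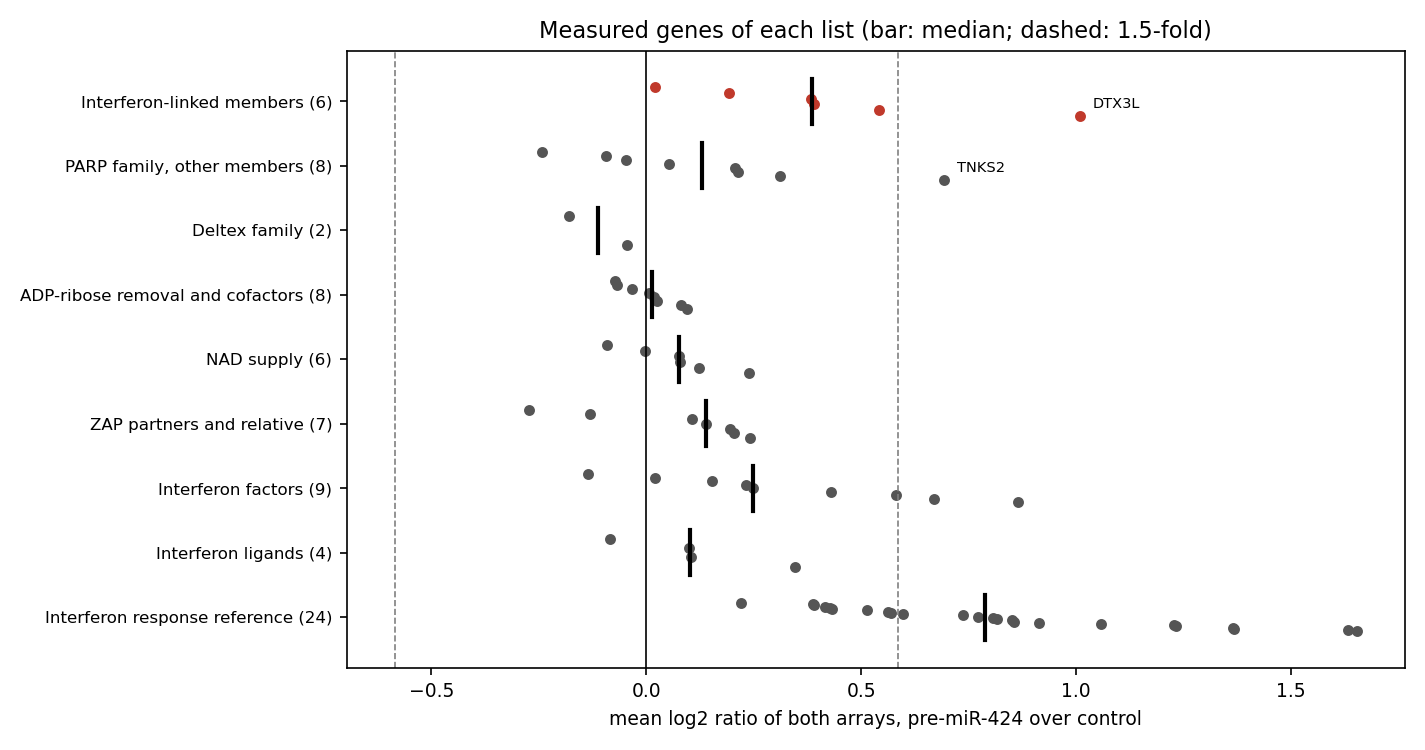
Mean log2 ratio of both arrays (x axis) for each measured gene (points) of the 6 interferon-linked genes and of 8 pathway lists (rows, with the number measured); short bars are medians and dashed lines 1.5-fold in either direction. Medians are 0.39 for the interferon-linked genes, 0.13 for the other PARPs and 0.79 for the interferon response genes.

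The 5 genes outside the members whose 2 ratios lay nearest to those of DTX3L, by Euclidean distance over the 2 arrays, were RTCA at a distance of 0.0028, BTG3 (0.042), ZBP1 (0.073), RDX (0.10) and HIRA (0.17). RTCA, the RNA 3'-terminal phosphate cyclase, had 0.97 and 1.05, and ZBP1, a sensor of Z-form nucleic acids, had 1.01 and 0.99. Likeness over 2 arrays of the same RNAs says only that the ratios were of similar size.

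The labelled cell type was checked on markers. All 10 basal and epithelial markers, such as KRT5, KRT14 and TP63, were well above background, while the luminal marker KLK3 was not. Of 15 markers of leukocytes, endothelium and fibroblasts 8 were well above background, among them 1 of 4 PTPRC probes, but CD3E, PECAM1, VWF, KDR, COL1A2 and PDGFRB were among those that were not. Their summed normalized intensities were 3172 to 3611 with pre-miR-424 and 3584 to 3699 in the control for leukocytes, 626 to 656 and 629 to 652 for endothelium, and 2128 to 2264 and 1969 to 1972 for fibroblasts. The part of other cells in the members' ratios was not tested. Median spot signals lay between 165 and 314 over backgrounds of 28 to 70, no spot was saturated, and 66.8% to 70.1% of spots were well above background. Pearson's correlation of the arrays over measured probes, which are not replicates, was 0.157, and the error of a single array was 0.24.

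Under 11 alternatives of processing that change a ratio, DTX3L stayed between 0.95 and 1.05, PARP9 between 0.48 and 0.59, PARP14 between 0.34 and 0.53, PARP10 between 0.19 and 0.42 and ZC3HAV1 between 0.11 and 0.22. PARP12 took values from −0.042 to 0.073 and PARP1 from −0.32 to 0.17, so their direction depended on the setting, and PARP2 ran from 0.061 to 0.19.

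**Figure D5:**
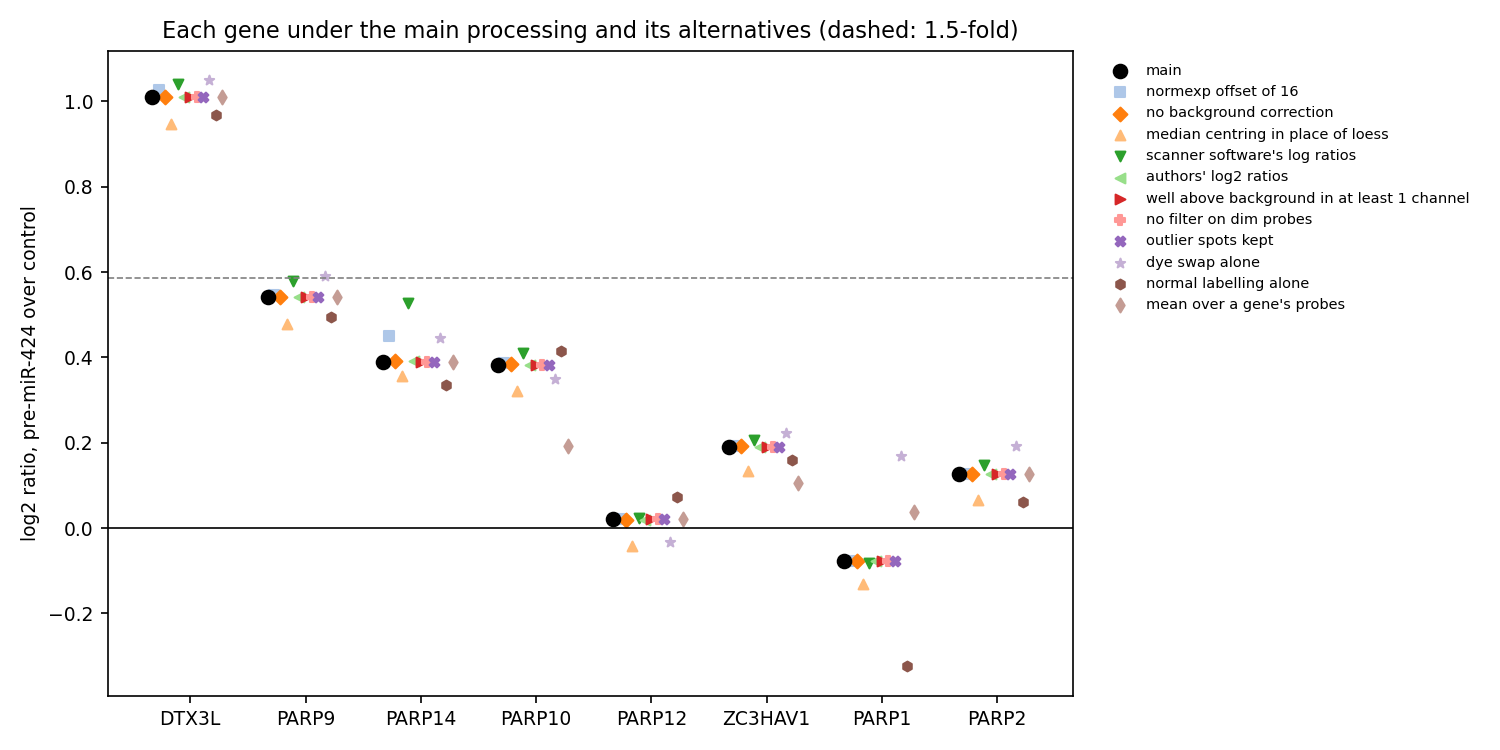
Log2 ratio of pre-miR-424 over control (y axis) of each gene (x axis) with the processing used throughout (black circle, "main") and under 11 alternatives (other symbols). DTX3L remains above the dashed line of 1.5-fold under each, PARP9 crosses it on the dye swap alone, and PARP12 and PARP1 take either sign.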

How the data were processed

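RNA of RWPE-1 cells given pre-miR-424 (30 nM) was set against RNA of cells given the control precursor on 2 arrays, a dye swap of 1 comparison, and groups and dyes came from the labels. The scanner files deposited by the authors (Agilent Feature Extraction 10.7.3.1, per the file headers) hold median signals and local backgrounds as linear intensity, not normalized, and log10 ratios of the dyes (Cy5 over Cy3) from the software. A table of log2 ratios deposited by the authors states neither scale nor direction. Its columns (medians 0.0236 and 0.0355) correlated at 0.991 and 0.988 with the unturned Cy5 over Cy3 log2 ratios computed here. No count of reads lies behind these values, and the number of arrays limits the precision.

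Background was corrected by normexp with an offset of 50, and ratios were normalized by loess with control spots at weight 0 (limma 3.58.1, R 4.3.3). The offset draws ratios of dim probes towards 0. Control spots were left out, spots of a probe averaged and the swap's sign turned. Aquantile scaling served the levels only. A probe counted as measured as defined in the report (where it was printed repeatedly, by the majority of its spots), and the gene's value is that of its brightest measured probe. Called means 1.5-fold or more in the same direction on both arrays. A RefSeq accession was given for 27134 probes, and 25767 (95.0%) matched a symbol (RefSeq, GRCh38.p14); the array design used hg19, so no array coordinates are given. Python 3.11.15, pandas 2.3.3 and numpy 2.4.6 were used, and the steps were tested on simulated data.

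The naming rule took all members, the called genes and up to 4 genes of largest ratio in each list, and the 5 genes nearest to DTX3L. In lists without calls not all 4 are given, and other list genes were named after their values were seen. The members and lists were chosen with earlier results of these data known. The alternatives tried were thresholds of 2-fold and 1.2-fold, single arrays, ratios of the scanner software or of the authors, median centring in place of loess, an offset of 16 or uncorrected background, dim probes or outlier spots let in, and a gene's mean over its probes. Values of some list genes are not reported here.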

Additional observations from a re-analysis of the deposited data

How the results depend on the processing

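DTX3L was called at 1.5-fold under all 11 alternatives that change a ratio, and in the median of the 6 interferon-linked genes, 0.39, no alternative turned the direction. That median was 0.42 with an offset of 16, 0.34 with median centring, 0.47 with the scanner software's ratios and 0.29 with the mean over a gene's probes. The count of called members was 1, against 0 at 2-fold, 4 at 1.2-fold and 1 to 2 on single arrays, where PARP9 joined on the swap. The other ADP-ribosylation genes called were 1 (TNKS2), against 0 with median centring, 0 at 2-fold and 2 at 1.2-fold (TNKS joined). Median centring, which leaves dye bias that varies with brightness, moved the median of all measured genes by over 0.1 relative to loess (0.10 with normal labelling and −0.18 on the swap).

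The 86 genes higher became 47 with median centring, 128 with the scanner software's ratios and 210 to 243 on single arrays. They were 10 at 2-fold and 493 at 1.2-fold. The 54 lower became 92 with the scanner software's ratios, 4 at 2-fold, 482 at 1.2-fold and 171 to 276 on single arrays. The 108 probes higher became 61 with median centring, 217 with the scanner software's ratios, 14 at 2-fold, 806 at 1.2-fold and 316 to 431 on single arrays. The 110 probes lower became 211 with the scanner software's ratios, 22 at 2-fold, 841 at 1.2-fold and 346 to 481 on single arrays. Single arrays lack the demand for a repeat and the thresholds act by construction; the cause of the other moves was not tested. The share of calls that were higher, 61.4%, was 52.2% with median centring and 46.8% on the swap alone. Each ratio already pairs the 2 RNAs of 1 array, and no pairing across cultures was possible with 1 replicate of the comparison. Signal over background limits PARP14 and the second PARP10 probe most.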
